A study of Homo sapiens with 56 samples.

Results

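MHC class II genes and their master regulator CIITA were followed in 2 human acute myeloid leukaemia cell lines, Mv4;11 and KG-1, after treatment with PMR-116 or CX-5461. The set holds 10 genes, CIITA, CD74, HLA-DRA, HLA-DRB1, HLA-DPA1, HLA-DPB1, HLA-DQA1, HLA-DQB1, HLA-DMA and HLA-DMB, of 59409 gene symbols listed for Mv4;11 and 59081 listed for KG-1. The 10 genes were chosen with earlier results of these data known, among them their levels (CPM, counts scaled to a common library size) and fold changes against vehicle in each line, so the values below describe them and give no independent test of a response. All 10 were listed in both tables and passed the filter on low counts in both lines, beside 20495 tested genes in Mv4;11 and 18618 in KG-1. For each line the cultures received PMR-116 at 1 µM, the vehicle set beside PMR-116, CX-5461 at 1 µM, or the vehicle set beside CX-5461, each for 3 h and for 12 h. The vehicle was a citric acid and phosphate buffer in every case. There were 3 libraries in each of the 8 Mv4;11 groups and 4 in each of the 8 KG-1 groups. Both compounds are known as inhibitors of RNA polymerase I, the enzyme that makes the precursor of ribosomal RNA. Mv4;11 is a line that carries a KMT2A fusion, and KG-1 is a CD34-positive line. Neither stands for leukaemia cells of other origin. Mv4;11 formed batch 1 and KG-1 batch 2 in the labels, so line and batch cannot be told apart.

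MHC class II molecules present peptides from the endosomal route to CD4+ T cells. Each is a pair of an alpha and a beta chain, and the HLA-DR, HLA-DP and HLA-DQ genes encode the classical pairs. CD74, the invariant chain, fills the groove of new molecules until it is cut away, and HLA-DM, the pair made from HLA-DMA and HLA-DMB, exchanges its last fragment for a peptide. CIITA is a coactivator that binds no DNA itself and is recruited by RFX, CREB and NF-Y factors to the X and Y boxes of class II promoters. CIITA is itself switched on in dendritic cells and B cells, and by interferon gamma in other cells. Myeloid leukaemia cells differ widely in how much class II they carry.

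The promoters of the class II genes are shown because the X and Y boxes are the known sites to which CIITA is recruited. Of the 10 genes, 8 matched RefSeq's promoter table (GRCh38.p14), with 9 entries in all because HLA-DPA1 had 2. HLA-DRA and CIITA had no entry. In the 150 bases before each annotated start, a core of the X box, in which AG, AC and GATG are fixed and the letters between them are free, and CCAAT, the core of the Y box, were searched on both strands. The motifs were chosen after the member promoters had been seen, so the matches describe these windows. The X box core stood in 4 of the 9 member windows (HLA-DRB1, HLA-DQB1, HLA-DMA and HLA-DMB) and in 0.379% of all 35116 windows. CCAAT, or ATTGG on the other strand, stood in 7 of the 9 member windows and in 23.5% of all windows, and both stood together in 4 of the 9 and in 0.0968% of all windows. The 4 windows with both, and that of CD74, are printed 5′ to 3′ on the strand of the gene, with the matches in capitals.
HLA-DRB1, chr6:32589849-32589998, minus strand: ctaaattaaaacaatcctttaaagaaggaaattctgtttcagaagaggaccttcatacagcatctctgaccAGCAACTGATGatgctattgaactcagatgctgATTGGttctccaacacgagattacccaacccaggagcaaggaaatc
HLA-DQB1, chr6:32666658-32666807, minus strand: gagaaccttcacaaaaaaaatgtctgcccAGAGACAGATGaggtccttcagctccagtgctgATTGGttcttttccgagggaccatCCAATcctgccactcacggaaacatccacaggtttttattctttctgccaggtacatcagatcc
HLA-DMA, chr6:32953098-32953247, minus strand: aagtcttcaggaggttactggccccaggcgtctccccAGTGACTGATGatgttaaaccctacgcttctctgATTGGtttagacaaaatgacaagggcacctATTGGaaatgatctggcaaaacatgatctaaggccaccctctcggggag
HLA-DMB, chr6:32941029-32941178, minus strand: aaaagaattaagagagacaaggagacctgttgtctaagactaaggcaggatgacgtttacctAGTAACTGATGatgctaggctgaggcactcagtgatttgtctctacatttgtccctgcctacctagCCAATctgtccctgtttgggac
CD74, chr5:150412911-150413060, minus strand: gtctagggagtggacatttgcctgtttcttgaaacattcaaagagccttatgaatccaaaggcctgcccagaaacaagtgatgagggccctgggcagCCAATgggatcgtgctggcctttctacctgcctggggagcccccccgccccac
From the first base of the X box core to the first base of the next CCAAT or ATTGG there were 33 bases in HLA-DRB1, 33 in HLA-DQB1, 34 in HLA-DMA and 66 in HLA-DMB. In CD74 CCAAT was the only match in this window. The search finds the stated letters alone, so a window or stretch without a match may still hold a box of other letters.

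In GENCODE 29 (GRCh38) the 8 HLA genes lie on chromosome 6 between the start of HLA-DRA at 32439842 and the end of HLA-DPB1 at 33087201. CD74 lies on chromosome 5 (150401637 to 150412929, minus strand) and CIITA on chromosome 16 (10866222 to 10943021, plus strand). HLA-DPA1 and HLA-DPB1 overlap each other on opposite strands, and HLA-DMA and HLA-DMB are both overlapped by the readthrough gene AL645941.2 on their own strand. CIITA overlaps DEXI, HLA-DMA overlaps BRD2 and HLA-DQB1 overlaps HLA-DQB1-AS1, each on the other strand. Class II genes also vary strongly between people and have close paralogues, such as HLA-DRB5 beside HLA-DRB1 and HLA-DQA2 beside HLA-DQA1. Reads of such genes can be split between entries, so their levels are uncertain, and the kit marks strand but the strand setting of the counting is not given in the sources used here.

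Total counts per library were 28751951 to 41542587 in Mv4;11 and 31010467 to 72707768 in KG-1. The vehicle library for PMR-116 at 12 h, replicate 3, stood apart in Mv4;11, with a chi-square per degree of freedom of 77.4 and 64.2 against the other 2 replicates, which gave 7.43 against each other. Results that this library moves are given with and without it. The labels do not say whether replicates were separate cultures, so p-values measure the spread between these samples, which may be technical. Levels are CPM scaled by the trimmed mean of M-values (TMM), errors after ± are SD for levels and standard errors for log2 fold changes, and a gene was called where its adjusted p from edgeR's quasi-likelihood test was under 0.05 over all genes tested. In whole cultures, fewer cells with a transcript and less transcript per cell cannot be told apart.

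In vehicle, all 10 transcripts were detected in both lines. CIITA lay between 22.5 and 40 CPM over the 12 Mv4;11 vehicle libraries (median 30.6) and between 43.6 and 60.5 CPM over the 16 KG-1 vehicle libraries (median 51.0). CD74 lay between 305 and 604 CPM in Mv4;11 (median 439) and between 295 and 391 CPM in KG-1 (median 338). HLA-DRB1 lay between 11.9 and 33 CPM in Mv4;11 and between 98.9 and 116 CPM in KG-1, with no overlap. HLA-DQB1 overlapped, between 7.59 and 16.4 CPM in Mv4;11 and between 8.65 and 11 CPM in KG-1. HLA-DMB, the beta chain of HLA-DM, had a median of 1.63 CPM in Mv4;11 (22.4 to 83.7 estimated counts per library) and 11.9 CPM in KG-1. HLA-DQA1, the alpha chain of HLA-DQ, had a median of 2.14 CPM in Mv4;11 and 0.542 CPM in KG-1 (15 to 57.8 estimated counts). These are levels per library, not per transcript length, so genes are not ranked against each other, and no test was made between the lines.

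**Figure D1:**
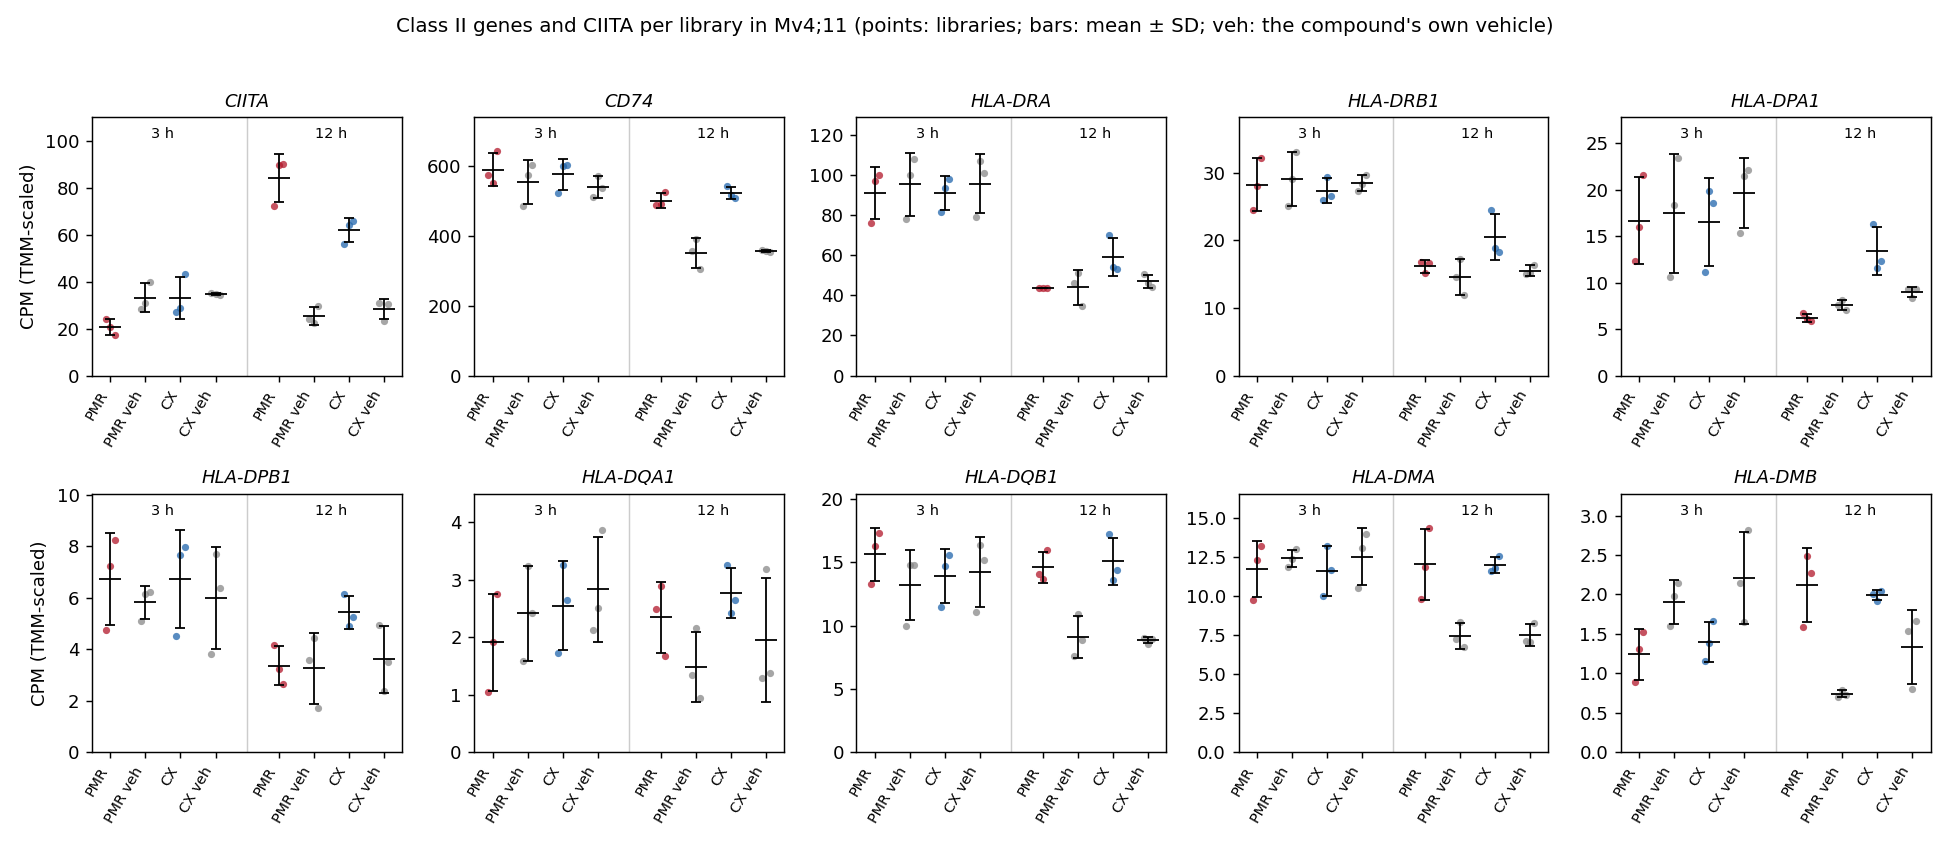
Level of each of the 10 genes in Mv4;11, in TMM-scaled CPM on a linear axis from 0, with 1 point per library and bars for mean ± SD of 3 libraries. In each panel PMR-116, its vehicle, CX-5461 and its vehicle run from left to right at 3 h and then at 12 h. At 12 h all 6 treated libraries of CIITA sit between 56.0 and 90.3 CPM, above the 6 vehicle libraries at 22.5 to 30.9 CPM.

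The vehicle libraries themselves changed with time in Mv4;11. Against the 3 h vehicle libraries, 9 of the 10 genes were called lower in the 12 h vehicle libraries and 0 higher, where 7.42% of all tested genes were called lower and 5.44% higher. The median log2 fold change of the 10 was -0.76, and that of all genes 0.01. These vehicle libraries are also those that the compounds are set against, so this comparison is not independent of the choice of genes. HLA-DRA, the alpha chain of HLA-DR, had 34.5, 46.1 and 51.1 CPM (lowest, median and highest of 6) at 12 h and 77.8, 100 and 108 CPM at 3 h. No 12 h library reached the lowest 3 h library, and the log2 fold change was -1.07 ± 0.10. CD74 had 305, 356 and 392 CPM at 12 h and 485, 554 and 604 CPM at 3 h, again without overlap, a log2 fold change of -0.63 ± 0.06. HLA-DPA1, the alpha chain of HLA-DP, fell by 1.16 ± 0.17 on the log2 scale, HLA-DMB by 1.04 ± 0.19, HLA-DRB1 by 0.94 ± 0.09, HLA-DPB1 by 0.78 ± 0.22, HLA-DMA by 0.74 ± 0.10 and HLA-DQB1 by 0.61 ± 0.12. CIITA had a smaller difference, -0.34 ± 0.11, and the call was lost in 9 of the 12 fits that leave out 1 vehicle library (-0.25 to -0.37) and with library totals (-0.32). With library totals the calls over all genes became 1433 higher and 1165 lower, in place of 1115 and 1520. HLA-DPB1 lost its call without replicate 2 or 3 of the CX-5461 vehicle at 12 h, replicate 2 of the CX-5461 vehicle at 3 h, or replicate 3 of the PMR-116 vehicle at 12 h, with log2 fold changes of -0.62 to -0.76 in those fits. HLA-DQA1 was not called (-0.63 ± 0.27).

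In KG-1 the 12 h vehicle libraries stood close to the 3 h ones for most of the genes. Of the 10, 2 were called higher and 1 lower at 12 h, where 16.2% of all genes were called higher and 15.4% lower, and the median log2 fold change was 0.06, against 0.02 over all genes. CIITA had 47.5, 55.4 and 60.5 CPM (lowest, median and highest of 8) at 12 h and 43.6, 47.9 and 51.8 CPM at 3 h, which overlap, a log2 fold change of 0.20 ± 0.06. HLA-DPA1 rose by 0.19 ± 0.06 and HLA-DMB fell by 0.17 ± 0.06 on the log2 scale. With no filter on low counts the calls of HLA-DPA1 (0.19) and HLA-DMB (-0.18) were lost, and with library totals that of HLA-DMB (-0.15), while CD74 (0.13) and HLA-DRA (0.09) were added. The HLA-DMB call was also lost without replicate 3 of either 3 h vehicle, replicate 3 of the PMR-116 vehicle at 12 h or replicate 4 of the CX-5461 vehicle at 12 h (-0.14 to -0.16). With the KG-1 replicate number as a block, CD74 (0.10) also passed, which made 3 higher and 1 lower, where 19.6% and 18.7% of all genes passed.

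**Figure D2:**
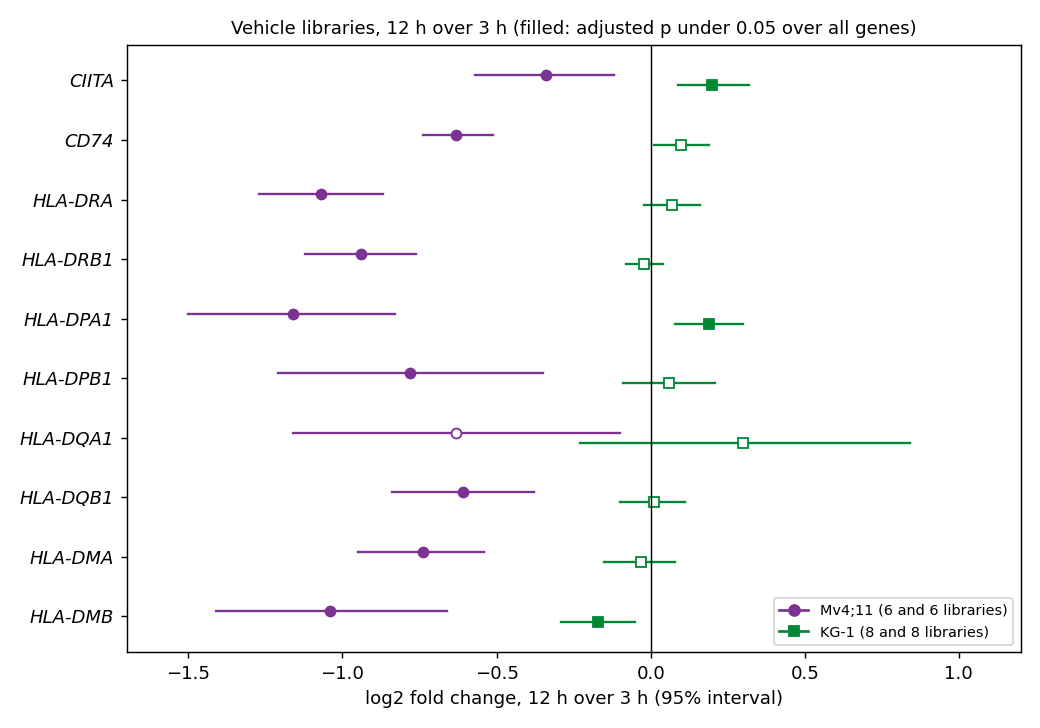
Log2 fold change of the 12 h over the 3 h vehicle libraries for each gene, with 95% intervals, circles for Mv4;11 (6 and 6 libraries) and squares for KG-1 (8 and 8 libraries), filled where called. In Mv4;11 all 10 points lie left of 0, from -0.34 to -1.16, and in KG-1 they lie between -0.17 and 0.30.

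CIITA, the coactivator, fell at 3 h of PMR-116 in both lines and was far above vehicle at 12 h in Mv4;11. At 3 h in Mv4;11 CIITA had 24.1, 20.6 and 17.3 CPM with PMR-116 (replicates 1 to 3) and 28.3, 31.1 and 40 CPM with its vehicle. The groups did not overlap, and the log2 fold change was -0.69 ± 0.16. At 12 h it had 72.4, 89.7 and 90.3 CPM with PMR-116 and 24, 22.5 and 29.6 CPM with its vehicle, a 3.32-fold difference (log2 1.73 ± 0.16). Without the vehicle library that stood apart the log2 fold change was 1.84. With CX-5461 at 3 h CIITA had 27.1, 28.6 and 43.3 CPM, against 35.2, 34.9 and 34.2 CPM with vehicle, groups that overlap because replicate 3 was high (-0.08 ± 0.16). At 12 h it had 56.0, 64.2 and 65.8 CPM with CX-5461 and 30.9, 23.3 and 30.4 CPM with vehicle, a 2.20-fold difference (log2 1.14 ± 0.16).

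In KG-1 CIITA was lower at 3 h of either compound. PMR-116 libraries had 32.8, 36.4, 29.3 and 30.5 CPM (replicates 1 to 4), against 51.2, 50.7, 43.6 and 46.5 CPM in vehicle, without overlap (-0.58 ± 0.08). CX-5461 libraries had 35.3, 39.1, 35.6 and 36.3 CPM, against 44, 49.3, 44.9 and 51.8 CPM in vehicle, also without overlap (-0.38 ± 0.08). The CX-5461 call was lost without replicate 4 of its vehicle (-0.33). At 12 h CIITA had 49.3, 48.4, 56.7 and 52.2 CPM with PMR-116 and 49.8, 57.7, 60.5 and 55.2 CPM with vehicle, which overlap (-0.11 ± 0.08, not called). With CX-5461 it had 59.7, 67.2, 78.5 and 68.8 CPM, against 47.5, 55.7, 60.2 and 53.0 CPM with vehicle (0.34 ± 0.08, called higher). Only replicate 1 of CX-5461 lay below the highest vehicle library. That call was lost without replicate 3 or 4 of CX-5461 or replicate 1 or 4 of its vehicle (0.26 to 0.34), and when these 2 groups were fitted alone.

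**Figure D3:**
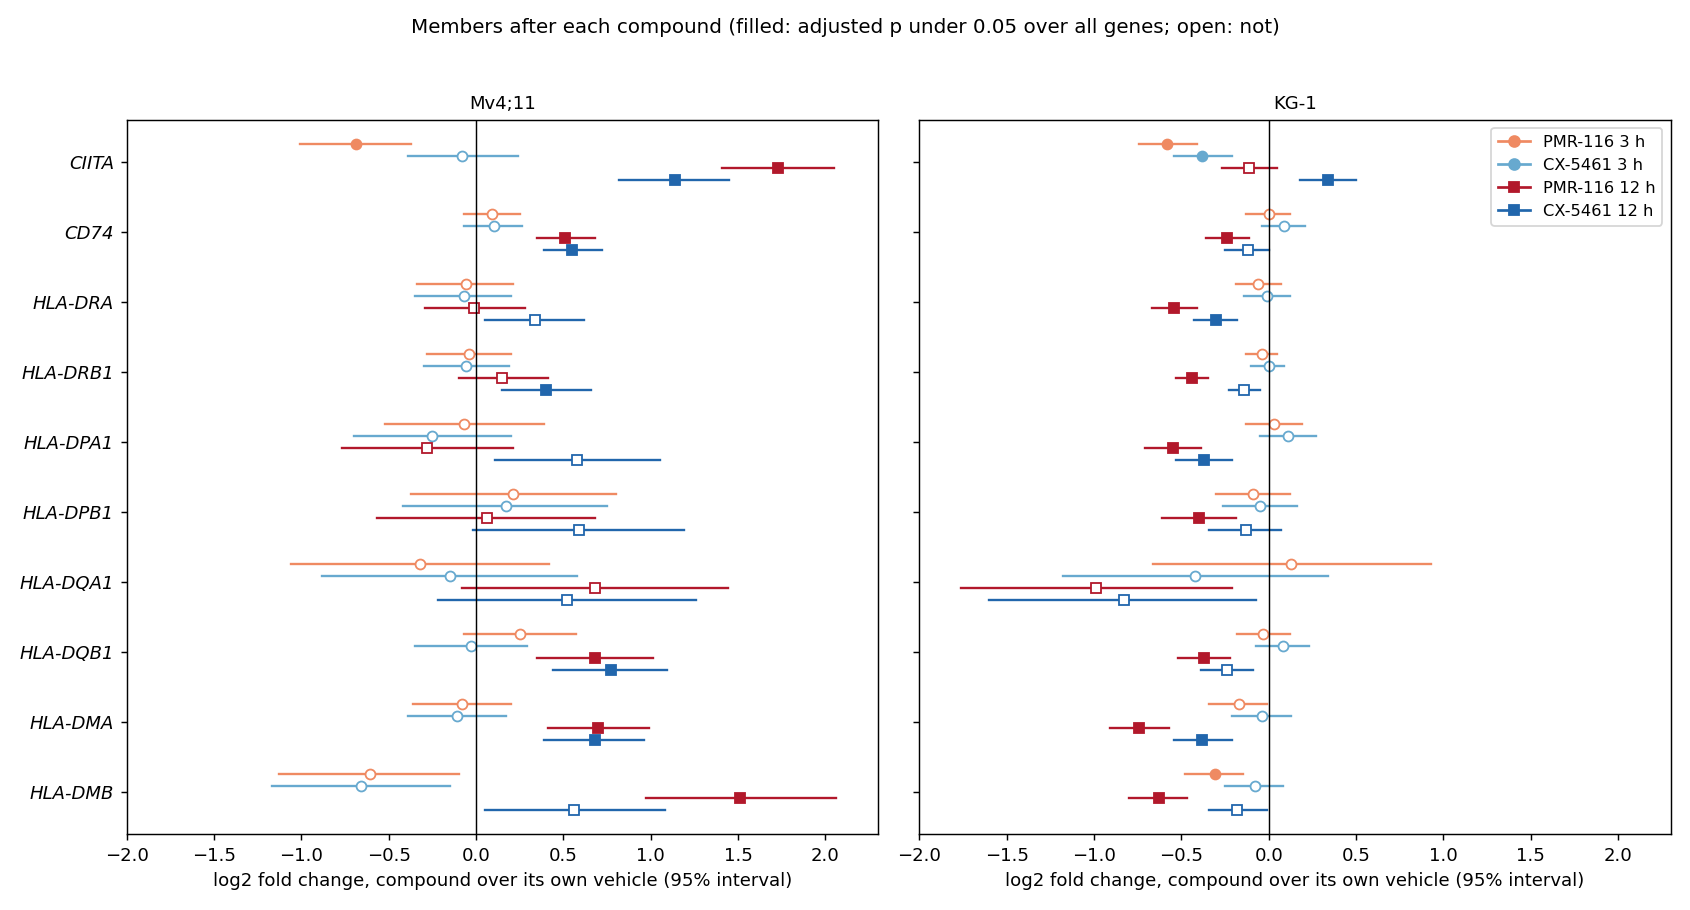
Log2 fold change of each gene after PMR-116 or CX-5461 over its own vehicle, with 95% intervals, in Mv4;11 (left, 3 libraries per group) and KG-1 (right, 4 per group). Circles are 3 h, squares 12 h, and filled symbols were called. At 12 h CIITA reads 1.73 and 1.14 in Mv4;11, while most KG-1 class II genes lie left of 0 for PMR-116.

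Counted over the 10 genes in Mv4;11, 1 was lower and 0 higher at 3 h of PMR-116, where 13.1% of all tested genes were called lower and 11.0% higher. At 3 h of CX-5461, 0 of the 10 were called, where 6.61% of all genes were lower and 5.05% higher. HLA-DMB alone had an unadjusted p under 0.05 there, and DESeq2 called 0. At 12 h 5 were called higher and 0 lower with PMR-116, where 20.7% of all genes were called higher and 22.5% lower, and 5 higher and 0 lower with CX-5461, where 14.8% and 16.5% were. The 10 genes had median log2 fold changes of -0.06 at 3 h and 0.60 at 12 h of PMR-116, and of -0.08 at 3 h and 0.57 at 12 h of CX-5461, while the medians over all genes lay between -0.001 and 0.036. CIITA, CD74, HLA-DQB1 and HLA-DMA were called with both compounds at 12 h, HLA-DMB with PMR-116 and HLA-DRB1 with CX-5461. Without the vehicle library that stood apart, 5 were still called with PMR-116. With library totals as the scale, the all-gene median at 12 h was 0.182 (PMR-116) and 0.118 (CX-5461), and the calls over all genes came to 6274 higher and 3203 lower for PMR-116, in place of 4241 and 4616, and to 4082 and 2592 for CX-5461, in place of 3042 and 3388. At 3 h of PMR-116 they became 2870 higher and 2250 lower, in place of 2253 and 2686. Small changes at 12 h are relative to that shift.

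CD74 at 12 h stood higher in both treatments than in vehicle in Mv4;11. It had 488, 491 and 525 CPM with PMR-116 and 356, 392 and 305 CPM with vehicle (0.51 ± 0.08, and 0.41 without the vehicle library that stood apart). With CX-5461 it had 542, 517 and 509 CPM, against 360, 356 and 354 CPM with vehicle (0.55 ± 0.08). Neither pair of groups overlapped. At 3 h it had 574, 552 and 643 CPM with PMR-116 and 485, 575 and 604 CPM with vehicle, and 524, 601 and 603 CPM with CX-5461 and 510, 572 and 536 CPM with vehicle, pairs that overlap. The treated 12 h libraries, at 488 to 542 CPM, lay within the 485 to 604 CPM of the 3 h vehicle libraries, while the 12 h vehicle libraries lay below them.

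The classical chains did not all follow CD74 in Mv4;11. HLA-DQB1, the beta chain of HLA-DQ, had 14.1, 13.7 and 16 CPM with PMR-116 at 12 h and 7.59, 10.9 and 8.85 CPM with vehicle (0.68 ± 0.17). With CX-5461 it had 17.2, 13.6 and 14.4 CPM, against 9.05, 8.56 and 8.97 CPM with vehicle (0.77 ± 0.17). Neither pair overlapped. HLA-DRA, in contrast, had 43.7, 43.5 and 43.8 CPM with PMR-116 at 12 h, inside the 46.1, 51.1 and 34.5 CPM of its vehicle (-0.01 ± 0.15). The 34.5 CPM was that of the vehicle library that stood apart, and the treated libraries lay below the 46.1 and 51.1 CPM. With CX-5461 HLA-DRA had 70.1, 54.1 and 53.1 CPM, against 50.5, 46 and 44.1 CPM with vehicle (0.34 ± 0.14, not called). HLA-DRB1, the beta chain that pairs with HLA-DRA, had 24.4, 18.9 and 18.2 CPM with CX-5461 and 15, 15.2 and 16.4 CPM with vehicle. It was called higher there (0.40 ± 0.13), but not without replicate 1 of CX-5461 (0.23) or replicate 1 or 2 of its vehicle (0.38 and 0.39). With PMR-116 HLA-DRB1 was at 0.15 ± 0.13, not called with TMM scaling and called higher (0.33) with library totals. HLA-DPA1 had 6.73, 6.12 and 5.86 CPM with PMR-116 and 7.61, 8.11 and 7.06 CPM with vehicle (-0.28 ± 0.25), and 16.3, 11.6 and 12.3 CPM with CX-5461 and 9.27, 8.33 and 9.34 CPM with vehicle (0.58 ± 0.24). Neither was called, although neither pair of groups overlapped. With library totals, HLA-DRA (0.42) and HLA-DPA1 (0.66) were called higher with CX-5461. Both were also called higher there with no filter on low counts and with the 2 groups fitted alone, and HLA-DPA1 with the replicate block. HLA-DPB1 was at 0.06 ± 0.32 with PMR-116, and at -0.27 without the vehicle library that stood apart, and at 0.59 ± 0.31 with CX-5461, and HLA-DQA1 was at 0.68 ± 0.39 and 0.52 ± 0.38. None of these 4 values was called, but with no filter on low counts HLA-DPB1 with CX-5461 and HLA-DQA1 with PMR-116 were called higher.

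Of the HLA-DM chains, HLA-DMA was called higher than vehicle in Mv4;11 at 12 h of both compounds, and HLA-DMB at 12 h of PMR-116. HLA-DMA had 9.81, 11.9 and 14.4 CPM with PMR-116 and 7.22, 8.33 and 6.72 CPM with vehicle (0.70 ± 0.15), and 11.6, 11.8 and 12.6 CPM with CX-5461 and 7.11, 7.04 and 8.29 CPM with vehicle (0.68 ± 0.15). No treated library overlapped its vehicle. The 3 h vehicle libraries of HLA-DMA lay at 10.5 to 14 CPM and the 12 h vehicle libraries at 6.72 to 8.33 CPM. The treated 12 h levels were thus near those of vehicle at 3 h. HLA-DMB had 1.59, 2.49 and 2.27 CPM with PMR-116 and 0.700, 0.790 and 0.730 CPM with vehicle (1.51 ± 0.28, called). With CX-5461 it had 2.00, 1.92 and 2.05 CPM, against 1.54, 0.796 and 1.66 CPM with vehicle (0.56 ± 0.26, not called). The treated levels were close to each other and the vehicle levels were not, with a log2 difference between the vehicles of -0.86 ± 0.28 (PMR-116 vehicle over CX-5461 vehicle) that was not called. At 3 h HLA-DMB had 0.890, 1.31 and 1.52 CPM with PMR-116 and 1.60, 1.98 and 2.14 CPM with vehicle (-0.61 ± 0.26, not called). Over both vehicles HLA-DMB lay at 1.60 to 2.82 CPM at 3 h and at 0.70 to 1.66 CPM at 12 h.

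**Figure D4:**
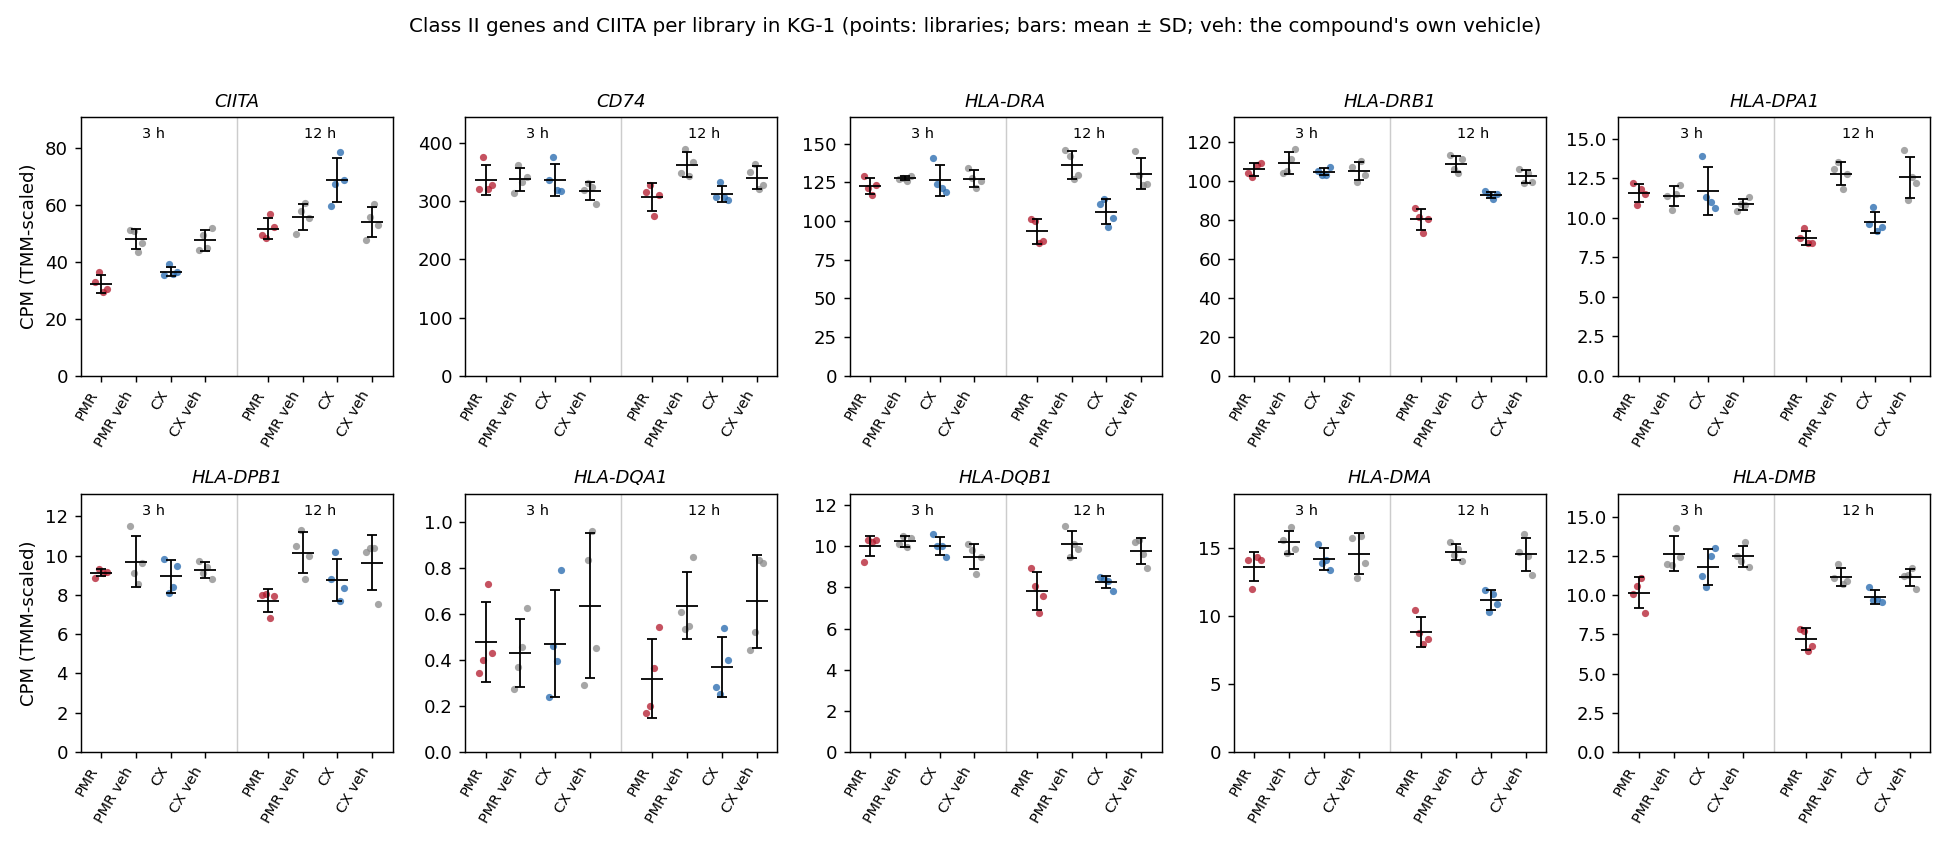
Level of each of the 10 genes in KG-1, in TMM-scaled CPM on a linear axis from 0, with 1 point per library and bars for mean ± SD of 4 libraries, in the order PMR-116, its vehicle, CX-5461, its vehicle at 3 h and then at 12 h. The 12 h PMR-116 libraries of HLA-DRA lie at 85.8 to 101 CPM, below their vehicle at 127 to 146 CPM.

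In KG-1 most of the genes were lower at 12 h of PMR-116. Of the 10 genes, 8 were called lower and 0 higher, where 4.74% of all tested genes were called lower and 4.73% higher, with a median log2 fold change of -0.49. At 12 h of CX-5461, 3 were lower and 1, CIITA, was higher, where 1.18% and 1.36% of all genes were called lower and higher, and the median was -0.21. At 3 h, 2 were lower and 0 higher with PMR-116, where 3.72% and 3.61% were, and 1 lower and 0 higher with CX-5461, where 1.58% and 1.85% were, with medians of -0.05 and -0.02. Over all genes the medians lay between -0.005 and 0.005. With library totals the calls at 3 h over all genes became 551 higher and 884 lower for PMR-116, in place of 673 and 693, and 309 and 419 for CX-5461, in place of 345 and 295. With the replicate number as a block, 9 of the 10 were called lower at 12 h of PMR-116, where 8.32% of all genes were called lower and 8.85% higher, HLA-DQA1 (-1.09) being added. With the block 5 were called lower at 12 h of CX-5461, where 2.99% were lower and 4.07% higher, HLA-DRB1 (-0.14) and HLA-DQB1 (-0.24) being added.

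HLA-DMA had the largest difference among the genes called with PMR-116 at 12 h in KG-1. It had 10.4, 8.72, 7.90 and 8.32 CPM with PMR-116 and 15.4, 14.5, 14.9 and 14 CPM with vehicle, without overlap (-0.74 ± 0.09). With CX-5461 HLA-DMA had 11.9, 10.3, 11.6 and 10.9 CPM, against 14.7, 16, 14.4 and 13 CPM with vehicle (-0.38 ± 0.08). HLA-DMB, its partner chain, had 7.84, 7.74, 6.43 and 6.75 CPM with PMR-116 and 11.1, 12.0, 10.7 and 10.9 CPM with vehicle (-0.63 ± 0.08). The groups did not overlap. It was also the gene called beside CIITA at 3 h of PMR-116, with 10.1, 10.6, 11.1 and 8.84 CPM, against 12.0, 11.9, 14.3 and 12.4 CPM with vehicle (-0.31 ± 0.08). That 3 h call was lost without replicate 1 or 4 of PMR-116 or replicate 3 of its vehicle (-0.25 to -0.31), and when the 2 groups were fitted alone.

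The HLA-DR chains fell together in KG-1 with PMR-116. HLA-DRA had 101, 99.9, 85.8 and 87.1 CPM with PMR-116 at 12 h and 146, 142, 127 and 130 CPM with vehicle (-0.54 ± 0.07). HLA-DRB1 had 86.1, 81.3, 72.9 and 80.1 CPM with PMR-116 and 113, 106, 104 and 111 CPM with vehicle (-0.44 ± 0.05). Neither overlapped its vehicle. With CX-5461 HLA-DRA had 111, 114, 96.4 and 102 CPM, against 145, 130, 123 and 124 CPM with vehicle (-0.30 ± 0.07, called), a call lost without replicate 1 of the vehicle (-0.25). HLA-DRB1 had 94.4, 92.9, 90.6 and 92.9 CPM with CX-5461 and 106, 98.9, 104 and 99.4 CPM with vehicle (-0.14 ± 0.05, not called).

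HLA-DP, HLA-DQ and CD74 were also lower in KG-1 at 12 h of PMR-116, all called but HLA-DQA1. HLA-DPA1 had 8.71, 9.34, 8.42 and 8.41 CPM with PMR-116 and 13.1, 13.5, 11.8 and 12.8 CPM with vehicle (-0.55 ± 0.08). HLA-DPB1, the beta chain of HLA-DP, fell by 0.40 ± 0.11 and HLA-DQB1 by 0.37 ± 0.08 on the log2 scale. CD74 had 316, 329, 274 and 311 CPM with PMR-116 and 349, 391, 343 and 368 CPM with vehicle, just without overlap (-0.24 ± 0.06). The calls of CD74 and HLA-DPB1 were lost without replicate 3 of PMR-116 (-0.19 and -0.35) or replicate 2 of its vehicle (-0.21 and -0.36), and that of HLA-DQB1 when the 2 groups were fitted alone. HLA-DQA1 had 0.170, 0.200, 0.363 and 0.541 CPM with PMR-116 and 0.609, 0.535, 0.548 and 0.846 CPM with vehicle, overlapping at its highest treated library (-0.99 ± 0.40, not called). With CX-5461 at 12 h HLA-DPA1 was called lower (-0.37 ± 0.08), but not without replicate 1 of the vehicle (-0.30). CD74 had 308, 334, 308 and 303 CPM with CX-5461 and 350, 364, 321 and 329 CPM with vehicle (-0.12 ± 0.06, not called). With these 2 CX-5461 groups fitted alone, 0 of the 10 were called in either direction.

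PMR-116 and CX-5461 were given at the same dose and times, so their effects were compared gene by gene as the PMR-116 log2 fold change minus that of CX-5461. In all 40 such differences (10 genes, 2 times, 2 lines) 0 were called, where 1.34% of all genes were called at 3 h and 5.11% at 12 h in Mv4;11. The KG-1 shares were 0.0107% at 3 h and 0.0483% at 12 h. At an unadjusted p under 0.05 Mv4;11 had 1 of the 10 at 3 h and 3 at 12 h, and KG-1 had 0 at 3 h and 5 at 12 h. DESeq2 called 0 in Mv4;11 at either time, and in KG-1 0 at 3 h and 3 at 12 h. These are differences of effects in genes chosen for their effects, so they are given with their 95% intervals as a description. In Mv4;11 CIITA differed by -0.61 (-1.06 to -0.16) at 3 h and by 0.59 (0.15 to 1.04) at 12 h, that is, lower and then higher with PMR-116. HLA-DMB differed by 0.95 (0.20 to 1.69) and HLA-DPA1 by -0.86 (-1.54 to -0.18) at 12 h. CD74, whose effects were nearly equal, differed by -0.04 (-0.27 to 0.20), and HLA-DMA by 0.02 (-0.38 to 0.43). The HLA-DQA1 interval at 12 h, -0.90 to 1.21, leaves a difference of 2-fold in either direction within or near its ends. In KG-1 at 12 h HLA-DRB1 differed by -0.30 (-0.43 to -0.17), HLA-DRA by -0.24 (-0.42 to -0.06), HLA-DMA by -0.36 (-0.60 to -0.13), HLA-DMB by -0.46 (-0.69 to -0.23) and CIITA by -0.45 (-0.68 to -0.22). With the replicate number as a block, CIITA, HLA-DRA, HLA-DRB1 and HLA-DMB passed in KG-1 at 12 h, where 0.961% of all genes passed.

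The 2 sets of vehicle libraries were also set against each other. In Mv4;11 0 of all tested genes were called at 3 h and at 12 h (0% each), with 762 and 857 at an unadjusted p under 0.05 and 1 and 0 by DESeq2. In KG-1 0 were called (0% each), with 838 and 479 at an unadjusted p under 0.05 and 2 and 1 by DESeq2. Of the 10 genes, HLA-DMB at 12 h in Mv4;11 was the single one with an unadjusted p under 0.05.

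Genes around the pathway were taken from 6 lists, drawn up with earlier results of these data known, whose counts stand beside the shares of all genes given above. The adjusted p-values printed for genes of these lists thus describe them and are no independent test. Genes known to control CIITA moved mostly upward in Mv4;11 at 12 h. Of 13 tested, 11 were called higher and 1 lower with PMR-116 (median log2 fold change 0.57), and 9 higher and 0 lower with CX-5461 (0.33). Of all genes 20.7% were higher and 22.5% lower with PMR-116, and 14.8% and 16.5% with CX-5461. PRDM1, a repressor of CIITA in plasma cells, had 17.4 ± 2.48 CPM with PMR-116 at 12 h and 6.86 ± 0.691 CPM with vehicle (SD, n = 3 each; log2 fold change 1.34 ± 0.16, adjusted p = 1.43e-07 by edgeR's quasi-likelihood test). With CX-5461 it rose by 1.19 ± 0.16 on the log2 scale (edgeR adjusted p = 2.34e-06). IRF1, which drives the interferon-responsive CIITA promoter, rose by 0.97 ± 0.18 with PMR-116 (edgeR adjusted p = 1e-04), and SOCS1, a brake on interferon signalling, by 0.81 ± 0.20. With CX-5461 SOCS1 rose by 1.00 ± 0.21 and the kinase JAK2 by 0.52 ± 0.10. The member called lower was IRF8, a factor of myeloid and dendritic cells (-0.49 ± 0.06). At 3 h 5 were higher and 2 lower with PMR-116, led by IRF1 (0.86 ± 0.18), where 11.0% and 13.1% of all genes were. With CX-5461 4 were higher and 1 lower, led by SOCS1 (1.37 ± 0.21), where 5.05% and 6.61% were.

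Factors and coactivators of class II promoters were called in both directions, at 12 h in Mv4;11 in shares near those of all genes. Of 10 in Mv4;11 at 12 h, 2 were called higher and 3 lower with PMR-116 (all genes 20.7% and 22.5%), and 1 higher and 2 lower with CX-5461 (14.8% and 16.5%). NFYA, a subunit of the NF-Y factor that binds CCAAT, had 41.4 ± 4.84 CPM with PMR-116 at 12 h and 85.9 ± 6.47 CPM with vehicle (SD, n = 3 each; -1.05 ± 0.09, edgeR adjusted p = 1.84e-09). It was lower in every compound comparison of both lines, by -1.52 ± 0.10 at 3 h of PMR-116 and -1.03 ± 0.09 at 3 h of CX-5461 in Mv4;11, and by -0.27 to -0.58 in KG-1. RFX5, which binds the X box, rose at 12 h in Mv4;11 with PMR-116 (0.61 ± 0.07) and with CX-5461 (0.51 ± 0.07), and RFXAP, its partner, fell with PMR-116 (-0.46 ± 0.11) and with CX-5461 (-0.44 ± 0.11). KAT2B, a histone acetyltransferase, rose with PMR-116 (1.17 ± 0.18). At 3 h 1 was higher and 3 lower with PMR-116 (all genes 11.0% and 13.1%) and 1 higher and 2 lower with CX-5461 (5.05% and 6.61%).

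Genes of the endosomal route that cut proteins and trim class II moved upward in Mv4;11 at 12 h. Of 10 tested, 7 were higher with PMR-116 and 6 with CX-5461, with 0 lower in both. Over all genes 20.7% were higher and 22.5% lower with PMR-116, and 14.8% and 16.5% with CX-5461. Cathepsin L (CTSL) had 3.35 ± 1.13 CPM with PMR-116 and 0.578 ± 0.185 CPM with vehicle (2.52 ± 0.29), and cathepsin B (CTSB) 449 ± 21.2 CPM and 194 ± 5.56 CPM (1.21 ± 0.08). IFI30, a thiol reductase of the endosome, rose by 1.06 ± 0.09. With CX-5461 CTSL rose by 1.62 ± 0.28, CTSB by 0.85 ± 0.08 and MARCHF8, a ligase that removes class II from the surface, by 0.75 ± 0.09. At 3 h 3 were higher with PMR-116 (all genes 11.0%) and 2 with CX-5461 (5.05%), with 0 lower (13.1% and 6.61%). CTSS, the cathepsin that finishes the cutting of CD74, rose by 0.82 ± 0.10 with PMR-116 and by 0.29 ± 0.10 with CX-5461 at 12 h in Mv4;11, while in KG-1 it fell by 0.38 ± 0.08 on the log2 scale at 12 h of PMR-116.

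MHC class I genes, which present peptides to CD8+ T cells, moved both ways. Of 18 in Mv4;11 at 12 h, 8 were higher and 6 lower with PMR-116 (all genes 20.7% and 22.5%). With CX-5461 5 were higher and 3 lower (14.8% and 16.5%). At 3 h 4 were higher and 3 lower with PMR-116 (11.0% and 13.1%), and 3 higher and 2 lower with CX-5461 (5.05% and 6.61%). HLA-E, a ligand of natural killer cell receptors, had 772 ± 8.70 CPM with PMR-116 at 12 h and 302 ± 28.1 CPM with vehicle (1.36 ± 0.08), while the chaperone CALR had 502 ± 47.9 CPM and 1250 ± 126 CPM (-1.31 ± 0.09). ERAP2, a peptide-trimming protease, rose by 1.13 ± 0.20 with PMR-116 and 1.10 ± 0.20 with CX-5461. With CX-5461 HLA-E rose by 0.78 ± 0.08 and the peptide transporter gene TAP1 by 0.59 ± 0.08. Of 8 costimulatory genes tested, 3 were higher and 1 lower with PMR-116 at 12 h and 4 higher and 0 lower with CX-5461, beside the same 12 h shares of all genes. CD86, a ligand of CD28 on T cells, had 14.3 ± 1.87 CPM with PMR-116 and 1.16 ± 0.466 CPM with vehicle (3.61 ± 0.30), and 4.61 ± 0.721 CPM with CX-5461 and 1.10 ± 0.305 CPM with vehicle (2.06 ± 0.30). TNFSF9, the ligand of 4-1BB, rose at every time in Mv4;11, by 1.57 ± 0.08 and 1.31 ± 0.08 with PMR-116 and 1.77 ± 0.08 and 1.16 ± 0.08 with CX-5461 at 3 h and 12 h. CD40 rose by 1.39 ± 0.52 with each compound at 12 h, at low levels. It had 1.17 ± 0.372 CPM with PMR-116 and 0.438 ± 0.225 CPM with vehicle, and 1.1 ± 0.227 CPM with CX-5461 and 0.416 ± 0.131 CPM with vehicle. Of 7 further class II genes, 5 were listed and 3 tested in Mv4;11. HLA-DRB5 among them rose with CX-5461 at 12 h (0.54 ± 0.21), and 0 were called with PMR-116.

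In KG-1 the same lists held calls in both directions. Tested there were 13 CIITA regulators, 10 promoter factors, 9 processing genes, 18 class I genes, 7 costimulatory genes and 2 other class II genes. Over all 6 lists 3 were called higher and 2 lower at 3 h of PMR-116 (all genes 3.61% and 3.72%). At 12 h of PMR-116, 8 were higher and 5 lower, larger shares than those of all genes (4.73% and 4.74%). At 3 h of CX-5461, 2 were higher and 1 lower (1.85% and 1.58%). At 12 h of CX-5461, 1 was higher and 1 lower (1.36% and 1.18%). With the replicate number as a block, the PMR-116 counts became 6 and 3 at 3 h (7.36% and 6.60% of all genes). At 12 h they became 13 and 8 (8.85% and 8.32%). The CX-5461 counts became 8 and 3 at 3 h (5.55% and 3.76%) and 7 and 5 at 12 h (4.07% and 2.99%). HLA-DRB5, the close paralogue of HLA-DRB1, fell by 0.43 ± 0.07 on the log2 scale at 12 h of PMR-116 (edgeR adjusted p = 5.94e-05), PSMB8, an immunoproteasome subunit, by 0.34 ± 0.05, and CTSH rose by 0.59 ± 0.12. TAP1 was higher in each of the 4 comparisons, by 0.14 to 0.28.

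**Figure D5:**
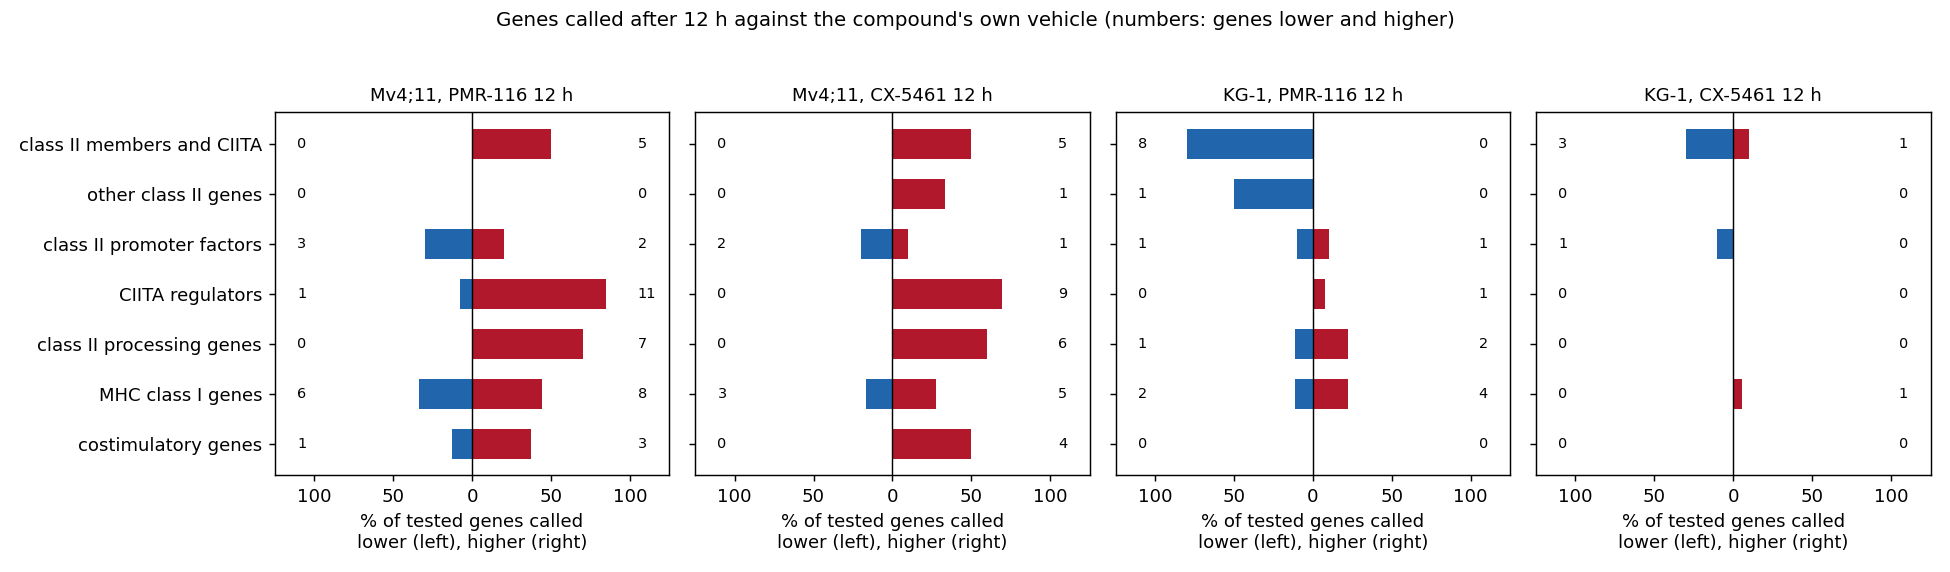
Share of the tested genes of each list called lower (left) and higher (right) at 12 h against the compound's own vehicle, with the numbers of genes at the ends, for PMR-116 and CX-5461 in Mv4;11 and then in KG-1. CIITA regulators read 11 higher and 1 lower for PMR-116 in Mv4;11, against 8 of the 10 class II members lower for PMR-116 in KG-1.

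Markers of cells that carry class II were read in the same libraries. CD34 reached 2490 CPM in KG-1 and no more than 1.19 CPM in Mv4;11, and FLT3 reached 472 CPM in Mv4;11 and no more than 6.49 CPM in KG-1. Both moved with treatment, CD34 at 12 h of CX-5461 to 2390 ± 88.2 CPM, against 1920 ± 104 CPM with vehicle in KG-1, and FLT3 as given below. B cell markers summed to 3.60 to 5.40 CPM over 6 genes at 12 h of PMR-116 in Mv4;11, against 4.31 to 6.69 CPM in vehicle, with MS4A1 at no more than 0.111 CPM in any library. Of 6 dendritic cell markers tested in Mv4;11 at 12 h, 3 were higher and 1 lower with PMR-116 (all genes 20.7% and 22.5%), and 2 higher and 1 lower with CX-5461 (all genes 14.8% and 16.5%). FCER1A, a receptor chain of dendritic cells and basophils, had 13.1 ± 2.05 CPM with PMR-116 and 2.20 ± 0.216 CPM with vehicle, and 17.6 ± 0.798 CPM with CX-5461 and 2.40 ± 0.255 CPM with vehicle. ZBTB46, a factor of classical dendritic cells, had 34.8 ± 6.3 CPM with PMR-116 and 20.1 ± 2.07 CPM with vehicle, and it rose with CX-5461 too (0.60 ± 0.11). The summed level of the 8 genes was mostly FLT3, which fell. The sum lay at 382 to 454 CPM with PMR-116 and 425 to 504 CPM with vehicle, of which FLT3 made 344 ± 31.3 CPM and 417 ± 39.6 CPM. With CX-5461 the sum lay at 391 to 472 CPM, against 415 to 500 CPM with vehicle, of which FLT3 made 359 ± 30.1 CPM and 427 ± 39.7 CPM. CLEC4C stayed at or below 0.364 CPM. At 3 h the sum was 333 to 362 CPM with PMR-116 and 477 to 510 CPM with vehicle, and 352 to 381 CPM with CX-5461 and 475 to 520 CPM with vehicle. FLT3 again made most of it, with 303 ± 15.2 CPM for PMR-116 and 445 ± 16.6 CPM for vehicle, while FCER1A was called higher with both compounds (0.61 ± 0.21 and 1.90 ± 0.21). Of 9 monocyte markers at 12 h, 3 were higher and 3 lower with PMR-116 and 2 higher and 1 lower with CX-5461, beside the same shares of all genes. Their sum was mostly LYZ, at 769 to 1000 CPM with PMR-116 and 1150 to 1300 CPM with vehicle, of which LYZ made 804 ± 119 CPM and 1150 ± 74.4 CPM. CSF1R, a receptor of monocytes, had 66.5 ± 4.86 CPM with PMR-116 and 34.5 ± 2.08 CPM with vehicle, and the integrin gene ITGAM 14.7 ± 2.66 CPM and 4.32 ± 0.742 CPM. Like LYZ, S100A9 and FCGR1A went the other way. S100A9 had 2.26 ± 0.334 CPM with PMR-116 and 5.9 ± 0.617 CPM with vehicle, and FCGR1A 26.3 ± 2.8 CPM and 34.1 ± 2.91 CPM. With CX-5461 the sum was 1130 to 1400 CPM, against 1240 to 1360 CPM with vehicle, and CD14 stayed at or below 0.636 CPM in every library. T cell markers summed to no more than 1.02 CPM in Mv4;11. In KG-1 they summed to 67.6 to 83.0 CPM, most of it CD3D. In KG-1 at 12 h of PMR-116, 0 of 2 B cell and 0 of 5 monocyte markers tested were called. Of 5 dendritic cell markers tested there 1, CLEC9A, was lower, where 4.74% of all genes were lower and 4.73% higher. The KG-1 monocyte list summed to 98.6 to 108 CPM with PMR-116 and 113 to 118 CPM with vehicle there, with CD14 at no more than 0.198 CPM, and the B cell list to 37.1 to 46.1 CPM and 39.7 to 46.8 CPM. The part of these markers in the class II values was not tested.

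The genes whose pattern was most like that of CD74 were listed by Pearson's r over the 8 group means of a line, on log2(CPM + 0.5), among 10737 genes of at least 5 CPM in Mv4;11 and 10452 in KG-1. In Mv4;11 they were LMNA (0.984), HS6ST1 (0.974), ZNF747 (0.956), A4GALT (0.953) and ASMTL (0.943). In KG-1 they were YBX3 (0.971), GMFG (0.969), MMP24OS (0.957), EIF4B (0.954) and RPL35A (0.951). No gene was among the 5 in both lines. The 8 means share libraries and scaling, and such values are picked from many genes, so they describe the ranking alone.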

How the data were processed

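Poly(A) RNA sequencing of 56 libraries was analysed. The deposited tables hold estimated counts per gene symbol, 1 table per line, and the submitters' processing notes name Salmon 1.5.2, DESeq2 and the build GRCh38.p13 without roles. The label of the KG-1 table mentions trimming and that of Mv4;11 does not. A further 24 columns of the Mv4;11 table matched no sample and were not used. Estimated counts were rounded and analysed in R 4.3.3 with edgeR 4.0.16: filterByExpr (minimum count 10, total 15), TMM, and glmQLFit and glmQLFTest on the 8 groups of a line together, 2-sided, with Benjamini-Hochberg adjustment over all genes of a comparison. Scripts were tested on simulated data. A 95% interval is the log2 fold change ± a normal quantile times its standard error, which was taken as the size of the change over the root of F. The lowest chi-square per degree of freedom of any replicate pair was 6.32, so none was counted as 1 sample.

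The members and lists were chosen with earlier results of these data known. The genes named were all 10 members and, per list and comparison, up to 3 called genes with the largest change and at least 1 CPM in the higher group. IRF8, CTSS in Mv4;11 and the marker genes named were added after their values were seen. Replicate numbers come from the titles. In KG-1 same-numbered libraries deviated together in all 16 pairs (correlation 0.113 to 0.499), and 14 were highest with their own number. The numbers thus pair the samples there, but KG-1 values come from the fit without the block unless the block is named. Blocked values are given where they change a call. Alternatives were RLE size factors, library totals, no filter, the replicate block, DESeq2 1.42.0, each pair of groups alone, and leaving out each library. The values of 1 gene of these lists are not reported here, though it stays in the counts.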

Additional observations from a re-analysis of the deposited data

Results flagged for a closer look

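In 6 of 80 KG-1 sets of 4 libraries (10 genes in 8 groups) 1 library stood away from the other 3 by Dixon's criterion. Chance meets it in about 1 of 20 sets, or 4 of 80. CD74 had 334 CPM in replicate 2 of CX-5461 at 12 h and 376 CPM in replicate 2 of PMR-116 at 3 h, both above the rest. HLA-DPB1 had 6.84 CPM in replicate 3 of PMR-116 at 12 h and 7.53 CPM in replicate 4 of the CX-5461 vehicle at 12 h, both below the rest. HLA-DMA had 12 CPM in replicate 2 and HLA-DQB1 9.26 CPM in replicate 1 of PMR-116 at 3 h, both below the rest.

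In Mv4;11 every PMR-116 library lay below its vehicle libraries at 3 h and above them at 12 h for CIITA (-0.69 and 1.73) and HLA-DMB (-0.61 and 1.51). The 3 h value of HLA-DMB was not called. The difference between the times was not tested, and how many of all genes change sides in this way was not counted.

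For some genes every treated library at 12 h lay above its vehicle libraries in Mv4;11 and below them in KG-1. With PMR-116 the log2 fold changes in Mv4;11 and KG-1 were 0.51 and -0.24 for CD74, 0.68 and -0.37 for HLA-DQB1, 0.70 and -0.74 for HLA-DMA, and 1.51 and -0.63 for HLA-DMB. With CX-5461 they were 0.34 and -0.30 for HLA-DRA, 0.40 and -0.14 for HLA-DRB1, 0.58 and -0.37 for HLA-DPA1, 0.77 and -0.24 for HLA-DQB1, and 0.68 and -0.38 for HLA-DMA. With CX-5461, HLA-DRA and HLA-DPA1 in Mv4;11 and HLA-DRB1 and HLA-DQB1 in KG-1 were not called. These differences were not tested, since line and batch cannot be told apart. How many of all genes part in this way was not counted, so no excess in the genes named is claimed.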

How the results depend on the processing

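No log2 fold change of the 10 genes that was called changed sign under any alternative run. Counts that moved by over 1.5 times were as follows, mostly in KG-1 where few genes passed. With no filter on low counts, the members called higher at 12 h of CX-5461 in Mv4;11 were 8 in place of 5. In KG-1 that setting gave 1 member and 1 related gene lower at 3 h of PMR-116, 5 related genes higher at 12 h of PMR-116, 0 higher at 12 h of CX-5461, and for vehicle over time 1 member higher and 0 lower. With library totals, KG-1 had 2 related genes lower at 3 h of CX-5461, 2 higher and 4 lower at 12 h of CX-5461, and 4 members higher and 0 lower for vehicle over time. With 2 groups alone, KG-1 had 1 member lower with 5 related genes higher and 1 lower at 3 h of PMR-116, 5 higher at 12 h of PMR-116, 1 higher and 2 lower at 3 h of CX-5461, and 0 members and 0 related genes in either direction at 12 h of CX-5461. DESeq2 gave 2 related genes higher and 3 lower there. RLE size factors moved no count that far. With the replicate block, KG-1 had 6 related genes higher at 3 h of PMR-116, 13 higher and 8 lower at 12 h of PMR-116, 8 higher and 3 lower at 3 h of CX-5461, and 5 members lower with 7 related genes higher and 5 lower at 12 h of CX-5461. In Mv4;11 same-numbered libraries deviated together more weakly, with a correlation over 0.1 in 7 of 12 pairs (0.0156 to 0.264). Of the 12, 11 were highest with their own number, so the samples may be paired there too. The block in Mv4;11 moved no count by over 1.5 times but added a call for HLA-DPA1 at 12 h of CX-5461 (0.60). Leaving out 1 library at a time gave in KG-1 0 to 1 members higher, 1 to 3 lower, 0 to 2 related genes higher and 1 to 2 lower at 12 h of CX-5461, 0 to 1 members lower at 3 h of CX-5461, 1 to 2 members and 1 to 2 related genes lower at 3 h of PMR-116, 4 to 8 related genes higher at 12 h of PMR-116, and 0 to 1 members lower for vehicle over time. In Mv4;11 it gave 7 to 11 related genes higher and 2 to 4 lower at 3 h of CX-5461, and 9 to 14 higher at 3 h of PMR-116. The cause of these moves was not tested. Alternatives for the related genes were added after seeing the data. HLA-DMB in Mv4;11 and HLA-DQA1 in both lines rest on few counts, which limits what differences could be seen.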
